A study of Homo sapiens with 49 samples.

Results

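The 10 genes described are regulators and targets of the integrated stress response: ATF4, DDIT3, CEBPB and CEBPG, which encode transcription factors, and TRIB3, DDIT4, SESN2, ASNS, CHAC1 and PPP1R15A, which are known targets. They were taken by name as the listed genes of the ATF4 pathway, 10 of 23713 entries in each expression table, and all 10 passed the filter for testing. The 38 libraries come from 2 human neuroblastoma cell lines. In SHEP-21N cells the MYCN transgene is of the TET-off kind and is silenced by doxycycline (0.2 µg/ml). They were sampled at 0 h (2 libraries) and at 2, 4, 6, 8, 16 and 24 h (3 each). In BE(2)-C cells doxycycline induces an shRNA (TET-on) to the transcription factor TWIST1. They were sampled without doxycycline (3 libraries) and after 3, 6, 12, 24 and 48 h at 0.5 µg/ml (3 each). No group that received doxycycline without the MYCN shutdown or the shRNA was analysed here, so an effect of the drug itself cannot be told apart from the intended one.

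The integrated stress response is a signalling pathway that cells use when amino acids run short, unfolded protein accumulates or other stresses arise. Kinases phosphorylate the initiation factor eIF2, general translation slows, and the transcription factor ATF4 is translated more efficiently because of short reading frames in its leader. ATF4, often in a pair with a C/EBP protein, then switches on genes for amino acid supply, for growth control and for the feedback that restarts translation. MYC proteins raise protein synthesis, and tumours driven by them are known to engage this pathway. Much of the control of ATF4 acts on its translation, so RNA levels, the only measurement here, do not report its protein.

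Promoter sequence is shown for 5 of the genes, because DDIT4 changed in the opposite direction to ATF4 and its targets ASNS, CHAC1 and PPP1R15A 24 h after MYCN shutdown. The windows are RefSeq sequence (GRCh38.p14, 5′ to 3′ on the strand of the gene), with capitals marking a motif match. All 10 genes were found in the RefSeq promoter table, in which each window runs from 250 bases before to 50 after a start. The motifs searched, on both strands, were TGATGNAA, the core of the composite element bound by ATF4 with C/EBP proteins, its form TGATGCAA, the full cyclic AMP response element TGACGTCA, and the E-box CACGTG bound by MYC family dimers among others. These stretches lie at chr22:39520420-39520539 (plus strand, ATF4), chr7:97872413-97872532 (minus strand, ASNS), chr15:40953221-40953340 (plus strand, CHAC1), chr19:48872301-48872420 (plus strand, PPP1R15A) and chr10:72273804-72273923 (plus strand, DDIT4).
ATF4: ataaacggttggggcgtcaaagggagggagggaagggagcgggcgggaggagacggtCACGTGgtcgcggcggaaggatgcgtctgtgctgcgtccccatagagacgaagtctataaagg
ASNS: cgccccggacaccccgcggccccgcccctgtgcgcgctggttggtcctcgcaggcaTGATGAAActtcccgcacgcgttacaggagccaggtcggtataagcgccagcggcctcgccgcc
CHAC1: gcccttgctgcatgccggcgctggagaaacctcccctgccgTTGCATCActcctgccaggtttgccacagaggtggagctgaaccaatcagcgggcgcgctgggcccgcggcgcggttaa
PPP1R15A: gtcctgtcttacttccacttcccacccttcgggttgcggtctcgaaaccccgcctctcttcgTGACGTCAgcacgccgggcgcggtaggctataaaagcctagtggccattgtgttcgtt
DDIT4: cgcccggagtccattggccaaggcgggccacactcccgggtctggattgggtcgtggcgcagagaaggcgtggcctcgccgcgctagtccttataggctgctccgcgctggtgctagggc

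The composite core TGATGNAA starts 68 bases before the ASNS start, as TGATGAAA, and 209 bases before the CHAC1 start, where it reads on the opposite strand. It also occurs in 1 window of CEBPG, as TGATGCAA. Among all 35116 windows, 3.62% hold TGATGNAA and 0.866% hold TGATGCAA, a subset of the TGATGNAA matches. The full cyclic AMP response element lies 58 bases before the PPP1R15A start and in 1.85% of windows, and CACGTG lies 82 bases before the ATF4 start shown and in 7.26% of windows. The DDIT4 window holds none of the 4 motifs, and neither do those of DDIT3, CEBPB, TRIB3 and SESN2. Of these, TRIB3 and SESN2 were lower at 24 h after MYCN shutdown and DDIT4 higher. Sequence outside the windows was not searched, and whether a motif bears on the direction of change was not tested. These are matches of letters, not measured binding sites.

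Values are FPKM, fragments per transcript length and library size, read either as rescaled to spike-in RNA that was added to lysates of counted cells or as unnormalised, so a change on the spike-in scale includes changes in the total RNA of the cells. Fewer cells with a transcript and less of it per cell cannot be told apart. FPKM carry no read number, so sequencing depth is unknown and the spread between libraries is the error given. No label states that replicates were separate cultures, and p-values then measure only the spread between these libraries. Spike-in totals before rescaling ran from 26061 to 47480 FPKM in SHEP-21N libraries and from 15455 to 140361 FPKM in BE(2)-C libraries, highest in the 3 libraries at 48 h. MYCN fell to 14.1 ± 3.05 FPKM (SD, n = 3) at 24 h in SHEP-21N cells, against 789 ± 93.4 FPKM at 0 h (SD, n = 2). TWIST1 fell to 7.81 ± 3.30 FPKM at 48 h in BE(2)-C cells, against 81.4 ± 10.8 FPKM without doxycycline (SD, n = 3 each). SHEP-21N cells had all 8 mesenchymal neuroblastoma markers and 2 of 8 adrenergic ones (HAND2 and ISL1) at a mean of at least 1 FPKM, and BE(2)-C cells had all 8 adrenergic and 2 of 8 mesenchymal ones (VIM and SNAI2). The BE(2)-C library without doxycycline numbered 1 had the lowest mean correlation with its own group, 0.955 against 0.966 and 0.970 for its partners. The 3 h library numbered 1 held 38.4 FPKM of the haemoglobin gene HBB, against 0.189 FPKM or less in every other BE(2)-C library; whether this bears on any value at 3 h was not tested. Index sequences are shared between 0 h and 8 h (2 of them), 2 h and 16 h (3) and 4 h and 24 h (3) in the SHEP-21N labels, and libraries sharing an index could not be separated in 1 sequencing pool.

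In untreated cells of both lines ATF4 was the most abundant of the 10 transcripts per length and CHAC1 the least. On the unnormalised scale ATF4 averaged 166 ± 2.07 FPKM in SHEP-21N cells at 0 h (SD, n = 2) and 245 ± 53.0 FPKM in BE(2)-C cells without doxycycline (SD, n = 3). ASNS followed at 30.6 ± 1.04 and 49.4 ± 7.62 FPKM. CHAC1 stood at 1.68 ± 0.415 and 2.85 ± 0.433 FPKM, where adding 1 FPKM before taking logs shrinks every fold change. In SHEP-21N cells the order below ASNS was CEBPB, TRIB3, PPP1R15A, DDIT4, CEBPG, DDIT3 and SESN2, and only CEBPB and TRIB3 overlapped as neighbours (21.7 to 26.7 and 19.9 to 22.9 FPKM). In BE(2)-C cells DDIT4 (32.8 ± 5.50 FPKM) stood next to ASNS, then came CEBPG, CEBPB, TRIB3, DDIT3, PPP1R15A and SESN2. TRIB3 overlapped there with DDIT3, DDIT3 with PPP1R15A, and SESN2 with CHAC1. The tables of the 2 lines were normalised separately, so levels are set side by side without a test.

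After MYCN shutdown the 10 genes changed in opposite directions. DDIT4, an inhibitor of the growth kinase complex mTORC1, rose to the 99.6th percentile of all tested fold changes by 6 h, was lower at 16 h than at 8 h and was high again at 24 h. On the spike-in scale 7 of the others were lower at 24 h by limma (background 32.4% of tested genes lower). They were ATF4, SESN2, TRIB3, ASNS, CHAC1, PPP1R15A and CEBPG. All but CEBPG were also lower unnormalised (background 36.4% lower). The spike-in calls of these genes did not hold in every fit with a single library left out. Unnormalised PPP1R15A peaked at 16 h, the time at which DDIT4 dipped, and unnormalised ATF4 and CHAC1, like PPP1R15A, were lower at 24 h than at 16 h.

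**Figure D1:**
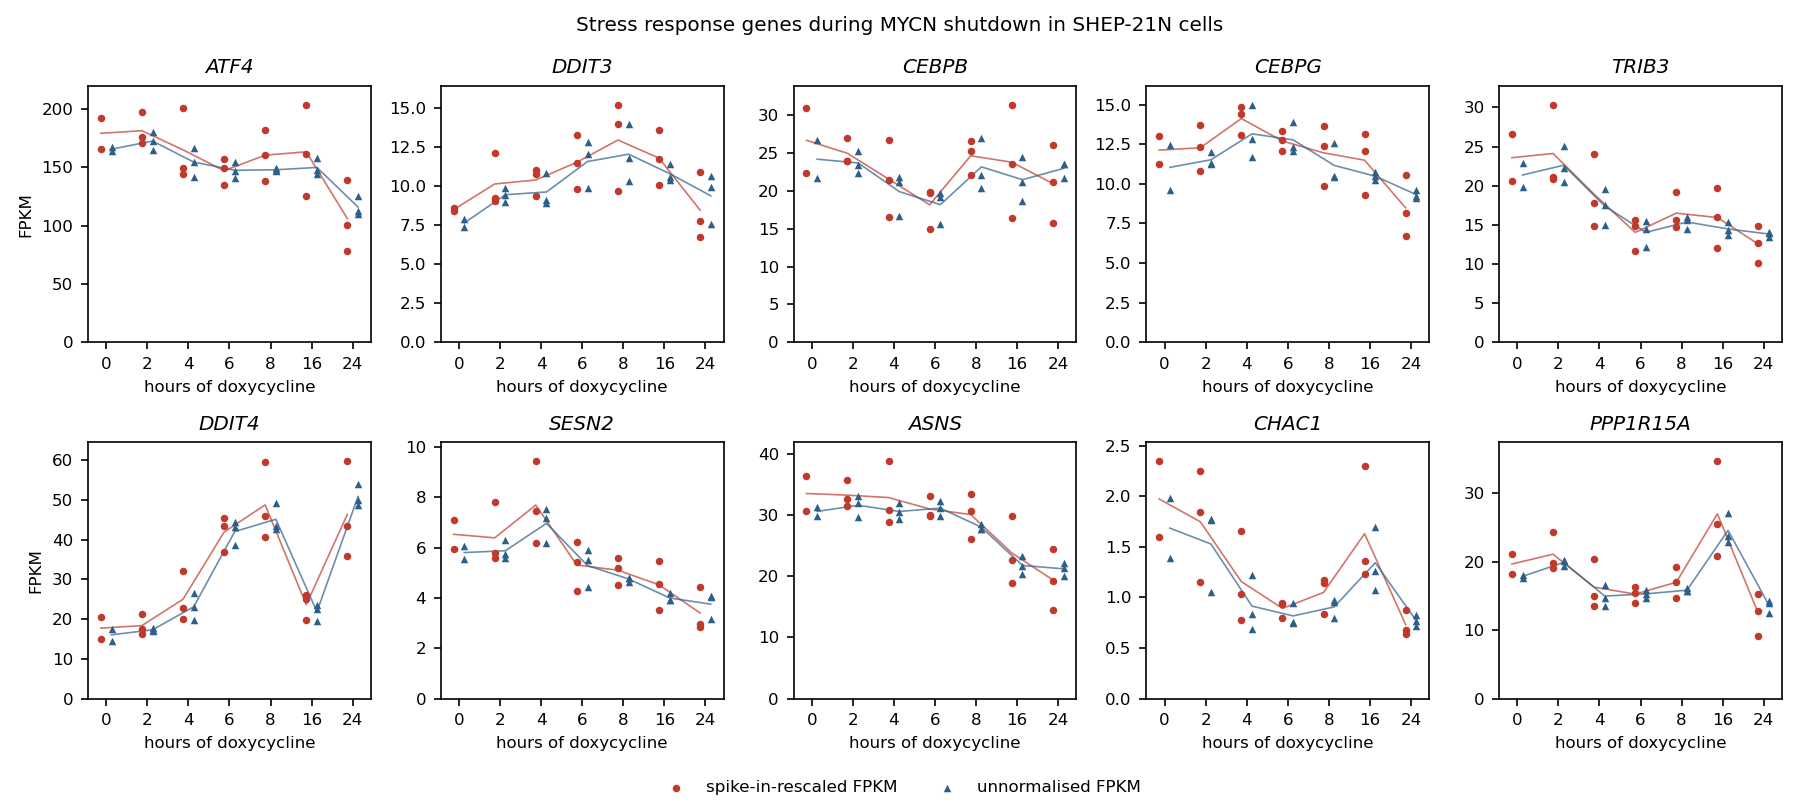
Level of each of the 10 stress response genes in single SHEP-21N libraries by hours of doxycycline; the y axis is FPKM, circles are spike-in-rescaled and triangles unnormalised values, and lines join group means. DDIT4 stands at 36.9 to 59.6 rescaled FPKM at 6 and 8 h, at 19.7 to 26.1 FPKM at 16 h and at 35.8 to 59.8 FPKM at 24 h, against 15.0 and 20.4 FPKM at 0 h.

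ATF4 levels at 24 h were 139, 101 and 78.3 rescaled FPKM, against 166 and 192 FPKM at 0 h. The groups did not overlap, and the library numbered 2 was the lowest at 24 h. From 2 to 16 h the libraries ranged over 125 to 204 FPKM and overlapped with those at 0 h at every time but 6 h, when they stood at 134.8 to 157 FPKM. The fold change of ATF4 at 24 h was -0.79 ± 0.23 on the log2 scale (SE; limma adjusted p = 0.0155). That call did not hold in every fit with a single library left out. On the unnormalised scale the ATF4 libraries at 24 h held 126, 113 and 110 FPKM, against 164 and 167 FPKM at 0 h, a change of -0.51 ± 0.07 (adjusted p = 1.07e-05) that held whichever of the 5 libraries was left out.

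DDIT3, known as CHOP, encodes a transcription factor that joins the response when stress persists. It stood at 15.2, 14.0 and 9.66 rescaled FPKM at 8 h, its highest mean, against 8.37 and 8.60 FPKM at 0 h. All 3 libraries at 8 h were higher, with a change of 0.53 ± 0.20 that did not pass (limma adjusted p = 0.1). Unnormalised DDIT3 was higher by 0.53 at 6 h (adjusted p = 0.00362), by 0.58 at 8 h (0.00213) and by 0.45 at 16 h (0.0113), with 14.0, 11.8 and 10.3 FPKM at 8 h against 7.91 and 7.36 FPKM at 0 h. Omitting any 1 library kept the calls at 6 and 8 h, while omitting number 2 of the 0 h libraries ended the one at 16 h (adjusted p = 0.0931). At 24 h the DDIT3 groups overlapped on both scales, with 10.9, 6.76 and 7.74 rescaled FPKM at 24 h. In GENCODE 29 its exons overlap those of MARS and MBD6 on the other strand and of AC022506.1 on the same strand, and no source used here says whether counting used the strand. MARS was lower at 24 h (-0.72 rescaled and -0.45 unnormalised). Exons of DDIT4 and CEBPB overlap the antisense genes DDIT4-AS1 and CEBPB-AS1, exons of ASNS overlap those of AC079781.5, and ATF4 and ASNS have 4 named pseudogenes each, so part of these values could come from such copies or neighbours.

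CEBPB and CEBPG encode partners of ATF4 in binding DNA. CEBPB held 26.0, 21.1 and 15.7 rescaled FPKM at 24 h, against 22.4 and 31.0 FPKM at 0 h, and the groups overlapped. Its change of -0.34 ± 0.25 did not pass (limma adjusted p = 0.273). CEBPG held 10.6, 8.15 and 6.73 FPKM at 24 h, against 13.03 and 11.2 FPKM at 0 h, all 3 libraries lower, with a change of -0.49 ± 0.17 (adjusted p = 0.0362). Unnormalised CEBPG overlapped between 24 h and 0 h and its change of -0.21 did not pass (adjusted p = 0.0822).

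DDIT4 is induced by ATF4 but also, as background, by low oxygen, glucocorticoids and p53. At 6 h it stood at 45.4, 43.5 and 36.9 rescaled FPKM and at 8 h at 45.9, 59.6 and 40.8 FPKM, against 15.0 and 20.4 FPKM at 0 h. Every library at 6 and 8 h was well above both at 0 h, and the changes were 1.21 ± 0.23 (limma adjusted p = 0.00615) and 1.41 ± 0.23 (adjusted p = 0.00305). At 16 h the libraries held 19.7, 25.1 and 26.1 FPKM, one of them within the 0 h range, and the change of 0.40 did not pass (adjusted p = 0.3). At 24 h the level was 59.8, 43.5 and 35.8 FPKM, again above both 0 h libraries, with a change of 1.32 ± 0.23 (adjusted p = 0.000688).

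The dip in DDIT4 at 16 h was compared with the times beside it in the same model, a comparison added after the values were seen. At 16 h DDIT4 was lower than at 8 h, with a change of -1.01 ± 0.21 (limma adjusted p = 0.0122; background 0.455% lower and 2.01% higher). At 24 h it was higher than at 16 h, with a change of 0.92 ± 0.21 (adjusted p = 0.0148; background 0.244% higher and 7.63% lower). The calls were lost without the 8 h library numbered 1 (-0.86, adjusted p = 0.0704) for the fall, and without the library numbered 1 at 16 h (0.97, adjusted p = 0.0601) or at 24 h (0.95, adjusted p = 0.0519) for the rise. Unnormalised DDIT4 levels were 42.6, 49.4 and 43.4 FPKM at 8 h, 22.4, 19.6 and 23.6 FPKM at 16 h, and 54.1, 48.7 and 49.9 FPKM at 24 h. No 16 h library came near those at 8 or 24 h, and the changes of -1.01 (adjusted p = 2.18e-06; background 13.2% lower and 15% higher) and 1.18 (adjusted p = 5.86e-07; background 11.1% higher and 18.6% lower) held whichever library was left out. Its unnormalised change against 0 h ranked at the 99.6th percentile of all tested genes at 6 and 8 h, the 87.7th at 16 h and the 99.7th at 24 h.

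PPP1R15A, known as GADD34, encodes the phosphatase subunit that reverses eIF2 phosphorylation. Its libraries at 16 h held 23.7, 27.1 and 22.9 unnormalised FPKM, above the 15.8, 16.1 and 15.7 FPKM of 8 h, the 13.9, 14.3 and 12.5 FPKM of 24 h and the 17.6 and 18.1 FPKM of 0 h. No library at another time reached the lowest at 16 h, the highest of them being 20.2 FPKM at 2 h. On this scale PPP1R15A was higher at 16 h than at 8 h by 0.60 (limma adjusted p = 1.02e-05) and lower at 24 h than at 16 h, at -0.81 (adjusted p = 7.11e-07), and both calls held with any 1 library left out. On the spike-in scale the rise of 0.61 between 8 and 16 h did not pass (adjusted p = 0.14) and the fall of -1.06 ± 0.20 at 24 h did (adjusted p = 0.00423).

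TRIB3, a pseudokinase that restrains the kinase AKT and feeds back on ATF4, was low from 6 h. It held 14.9, 15.6 and 11.7 rescaled FPKM at 6 h and 14.9, 12.6 and 10.1 FPKM at 24 h, against 20.6 and 26.6 FPKM at 0 h. Both times were wholly below 0 h, with changes of -0.71 ± 0.23 (limma adjusted p = 0.0563) at 6 h, which missed the threshold, and -0.87 ± 0.23 (adjusted p = 0.00888) at 24 h. Unnormalised TRIB3 was lower at 6, 8, 16 and 24 h (-0.58, -0.45, -0.53 and -0.59), though omitting number 2 of the 0 h libraries ended the call at 8 h (adjusted p = 0.0655).

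ASNS makes asparagine, and SESN2 restrains mTORC1 when leucine is scarce. Both fell late. ASNS held 24.5, 19.2 and 14.5 rescaled FPKM at 24 h, against 30.7 and 36.3 FPKM at 0 h, a change of -0.78 ± 0.21 (limma adjusted p = 0.00773). SESN2 held 4.42, 2.83 and 2.96 FPKM at 24 h, against 5.97 and 7.10 FPKM at 0 h, a change of -0.79 ± 0.20 (adjusted p = 0.0066). Neither overlapped with 0 h at 24 h, and unnormalised levels of both already passed at 16 h (-0.47 for ASNS and -0.44 for SESN2). Early in the course SESN2 held 7.47, 6.18 and 9.44 rescaled FPKM at 4 h, with 2 of the 3 libraries above the 0 h range, a change that did not pass (0.19, adjusted p = 0.714). Unnormalised SESN2 held 5.90, 5.53 and 4.44 FPKM at 6 h, all below the 7.18, 6.19 and 7.54 FPKM of 4 h. It was lower at 6 h than at 4 h by this scale (-0.34, adjusted p = 0.0198; background 10.3% lower and 5.27% higher), a call that ended without any 1 of 3 libraries (numbers 0 and 2 at 4 h and number 2 at 6 h), and the change of -0.46 on the spike-in scale did not pass (adjusted p = 0.58). ASNS did not pass at that step (0.02 unnormalised, adjusted p = 0.812), and whether the 2 genes differ there was not tested.

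CHAC1 encodes an enzyme that breaks down glutathione. It held 0.880, 0.679 and 0.634 rescaled FPKM at 24 h, against 1.60 and 2.35 FPKM at 0 h, and 1.23, 2.29 and 1.36 FPKM at 16 h. The 24 h libraries were all below 0 h and the 16 h libraries overlapped with it. The change at 24 h was -0.77 ± 0.20 (limma adjusted p = 0.00832), and on the unnormalised scale it was -0.59 (adjusted p = 0.00269), a call that ended when number 2 of the 0 h libraries was omitted (adjusted p = 0.0591). Unnormalised CHAC1 held 0.763, 0.717 and 0.823 FPKM at 24 h, below the 1.26, 1.69 and 1.07 FPKM of 16 h, which lay above the 0.952, 0.970 and 0.796 FPKM of 8 h. The fall between 16 and 24 h passed (-0.40, adjusted p = 0.0353) but was lost without any 1 of 5 of the 6 libraries, and the change of 0.29 between 8 and 16 h did not pass (adjusted p = 0.123).

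The other steps between neighbouring times, also added after the values were seen, were read on the unnormalised scale. At 4 h against 2 h DDIT4 was higher (0.39) and TRIB3 (-0.36) and PPP1R15A (-0.39) lower by limma (background 4.9% higher and 8.5% lower), and only the call of PPP1R15A held with any 1 library left out. At 6 h DDIT4 was higher than at 4 h (0.84, adjusted p = 0.000107). No gene passed at 8 h against 6 h by limma (background 3.89% changed), with 2 at an unadjusted p under 0.05. ASNS was lower at 16 h than at 8 h (-0.35, adjusted p = 0.00019) and ATF4 lower at 24 h than at 16 h (-0.37, adjusted p = 0.000374), and both held with any 1 library left out. On the spike-in scale the only calls among these steps were those of DDIT4 at 16 and 24 h and of PPP1R15A at 24 h.

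At 24 h 1 of the 10 genes was higher (DDIT4, background 6.16% of 11867 tested genes higher) and 7 were lower (background 32.4% lower). DDIT3 and CEBPB did not pass. All 3 libraries lay below both at 0 h for 7 genes (background 43.8%) and above for 1 (background 11%). The median change of the 10 genes was -0.71, against -0.31 for all tested genes. These counts rest on few libraries: DDIT4 was the only call at 24 h when number 2 of the 0 h libraries was omitted, and 5 calls were made when number 2 of the 24 h libraries was. Unnormalised values gave 1 gene higher and 6 lower (background 28.9% and 36.4%), CEBPG being the one no longer called, and medians of -0.44 and -0.04. On that scale all 3 libraries lay below 0 h for 6 genes (background 42.1%) and above for 1 (background 35.1%). Of 8 mesenchymal marker genes 6 were also higher at 24 h unnormalised, with summed levels of 821 to 868 FPKM at 24 h against 729 to 763 FPKM at 0 h. The 8 adrenergic markers summed to 35.8 to 38.3 FPKM at 24 h against 46.6 to 50.5 FPKM at 0 h, and the part of either in the results was not tested.

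At earlier times the spike-in scale gave few calls by limma. There were 0 calls at 2 h, 4 h and 16 h (background 0.0506%, 0.0843% and 8.17% changed), with 0, 1 and 4 of the genes at an unadjusted p under 0.05. DDIT4 was the single call at 6 h and at 8 h (background 3.17% higher and 7.54% lower at 6 h, 3.92% and 3.83% at 8 h). Omitting number 1 of the 0 h libraries ended the call at 6 h (0.99, adjusted p = 0.0665), and omitting number 2 of the 8 h libraries added DDIT3 at 8 h. The unnormalised scale, with its smaller spread, gave 0 calls at 2 h, 1 higher and 2 lower at 4 h, 2 and 5 at 6 h, 2 and 2 at 8 h, and 3 and 3 at 16 h. Its background was 0.581% changed at 2 h, 15.8% higher and 18.1% lower at 4 h, 26.8% and 29.8% at 6 h, 25% and 29.2% at 8 h, and 23.8% and 27.5% at 16 h. At least 1 omitted library ended the unnormalised calls of CHAC1 and PPP1R15A at 4 h, of these and of ATF4 and CEBPB at 6 h, of TRIB3 and CHAC1 at 8 h and of DDIT3 and DDIT4 at 16 h. Over the whole course 7 of the 10 genes varied by the moderated F test on the spike-in scale (background 31%), all but ATF4, DDIT3 and CEBPB, and 9 of 10 did unnormalised (background 81.9%), all but CEBPB. The spike-in count was 4 without number 2 at 0 h, 3 without number 1 at 24 h and 4 without number 2 at 24 h.

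Induction of the TWIST1 shRNA in BE(2)-C cells gave another picture. On the spike-in scale all 10 genes were lower at 48 h, but so were 93.3% of all tested genes. Relative to the other transcripts, on the unnormalised scale, DDIT3 and SESN2 were higher and PPP1R15A and CEBPG lower. PPP1R15A was lower from 12 h on. DDIT4, ATF4, TRIB3, ASNS and CHAC1, which changed with MYCN shutdown, did not pass on that scale at any time. Unnormalised CHAC1 held 1.86 to 2.23 FPKM at 3 h, 1.81 to 2.32 FPKM at 6 h and 2.02 to 2.32 FPKM at 12 h. These were all below the 2.43 to 3.30 FPKM without doxycycline, while CHAC1 overlapped with the controls at 24 and 48 h.

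**Figure D2:**
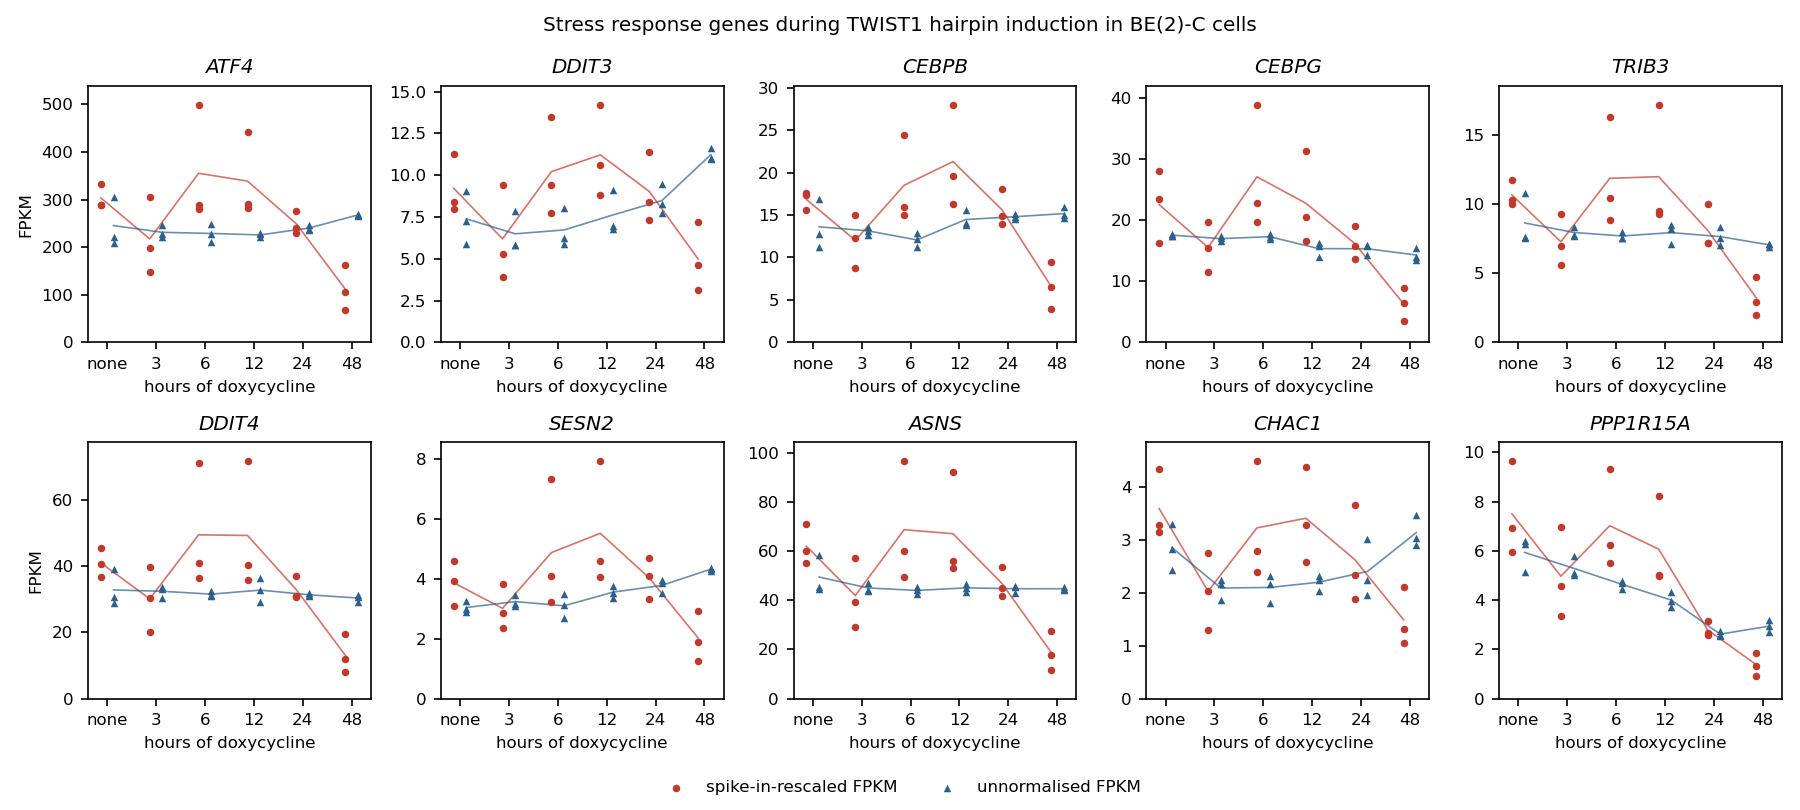
Level of each of the 10 stress response genes in single BE(2)-C libraries without doxycycline and by hours of doxycycline; the y axis is FPKM, circles are spike-in-rescaled and triangles unnormalised values, and lines join group means. Rescaled values at 48 h lie below those without doxycycline for all 10 genes, while unnormalised DDIT3 and SESN2 lie above them and PPP1R15A, CEBPG and TRIB3 below.

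At 48 h ATF4 held 106, 163 and 66.9 rescaled FPKM, against 288, 289 and 333 FPKM without doxycycline. The 48 h libraries were the lower ones and differed among themselves by more than the controls did. The change was -1.52 ± 0.36 (limma adjusted p = 0.000451), close to the median of -1.36 over all tested genes and at their 35.1st percentile. Unnormalised ATF4 was 271, 268 and 264 FPKM at 48 h, against 306, 220 and 209 FPKM without doxycycline, a range that took in all 3 treated libraries, and its change of 0.15 ± 0.11 did not pass (adjusted p = 0.29). The high control was the library numbered 1.

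The 10 changes at 48 h on the spike-in scale ran from -0.71 ± 0.30 for SESN2 (limma adjusted p = 0.0285) to -1.84 ± 0.30 for PPP1R15A (adjusted p = 1.67e-05), with a median of -1.52 for the 10. Their libraries were below all controls for 10 of 10 genes, as they were for 78.7% of tested genes. DDIT3 (-0.81) and SESN2 stood at the 87th and 90.6th percentile of all changes. Both calls were lost when single libraries were left out: DDIT3 without the control numbered 0 or the 48 h library numbered 0 or 2 (adjusted p up to 0.12), and SESN2 without the control numbered 0 or 2 or the 48 h library numbered 0 or 2 (up to 0.139). At 3, 6, 12 and 24 h limma called 0 of the 10 (background 0.035%, 0.035%, 0.0437% and 0.604% changed), and 1, 0, 0 and 1 had an unadjusted p under 0.05. The spread between libraries was wide on this scale, and without the control numbered 1 PPP1R15A passed at 24 h (-1.28, adjusted p = 0.0266). The moderated F called 10 of 10 genes over the course (background 96%) and, on the unnormalised scale, 5 of 10 (background 32.8%).

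PPP1R15A was the gene of the 10 with calls at the most times on the unnormalised scale. Without doxycycline and at 3, 6, 12, 24 and 48 h it averaged 5.94 ± 0.685, 5.29 ± 0.420, 4.64 ± 0.183, 4.00 ± 0.305, 2.62 ± 0.0951 and 2.94 ± 0.240 FPKM (SD, n = 3 each). From 6 h on no treated library reached the lowest control. The changes were -0.47 at 12 h (limma adjusted p = 0.00201), -0.93 ± 0.08 at 24 h (5.62e-07) and -0.81 ± 0.08 at 48 h (1.06e-06), all 3 kept with any 1 library left out. Its change at 24 h was at the 1.34th percentile of all tested genes.

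DDIT3 held 11.03, 10.999 and 11.7 unnormalised FPKM at 48 h, against 9.07, 5.86 and 7.24 FPKM without doxycycline. All 3 treated libraries were higher and closer together than the controls, with a change of 0.56 ± 0.15 (limma adjusted p = 0.00783). SESN2 held 4.34, 4.28 and 4.36 FPKM at 48 h, against 3.26, 2.90 and 2.98 FPKM without doxycycline, a change of 0.40 ± 0.07 (adjusted p = 0.00044). CEBPG held 15.5, 13.9 and 13.5 FPKM at 48 h, against 17.4, 17.5 and 17.8 FPKM without doxycycline, a change of -0.28 ± 0.06 (adjusted p = 0.00208). None of these groups overlapped, and the 3 calls held whichever of the 6 libraries was left out. MARS, whose exons overlap those of DDIT3, did not pass on this scale (0.07, adjusted p = 0.248).

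In all, 2 of the 10 genes were higher and 2 lower at 48 h on the unnormalised scale (background 18.1% higher and 21.3% lower), and the median change was 0.00 for the 10 and 0.02 for all tested genes. All libraries lay above the controls for 2 genes (background 19.7%) and below for 3 (background 22.6%), TRIB3 being the one with no call (-0.24, limma adjusted p = 0.0734). DDIT4, the gene that rose most with MYCN shutdown, held 29.3, 31.2 and 30.6 FPKM at 48 h, against 39.1, 30.6 and 28.8 FPKM without doxycycline, and its change was -0.10 ± 0.09 (adjusted p = 0.44). At 24 h SESN2 was higher (0.24) and PPP1R15A and CEBPG (-0.19) were lower (background 9.55% and 13.6%), but the SESN2 and CEBPG calls were lost with several single libraries left out. At 12 h PPP1R15A was the only call (background 3.33% lower), and at 3 and 6 h there were 0 (background 0.0175% and 0.481% changed), with 1 and 2 of the genes at an unadjusted p under 0.05. Of the 8 adrenergic markers 4 were higher and 2 lower at 48 h unnormalised, with sums of 839 to 864 FPKM at 48 h against 693 to 870 FPKM without doxycycline, and their part in these results was not tested.

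**Figure D3:**
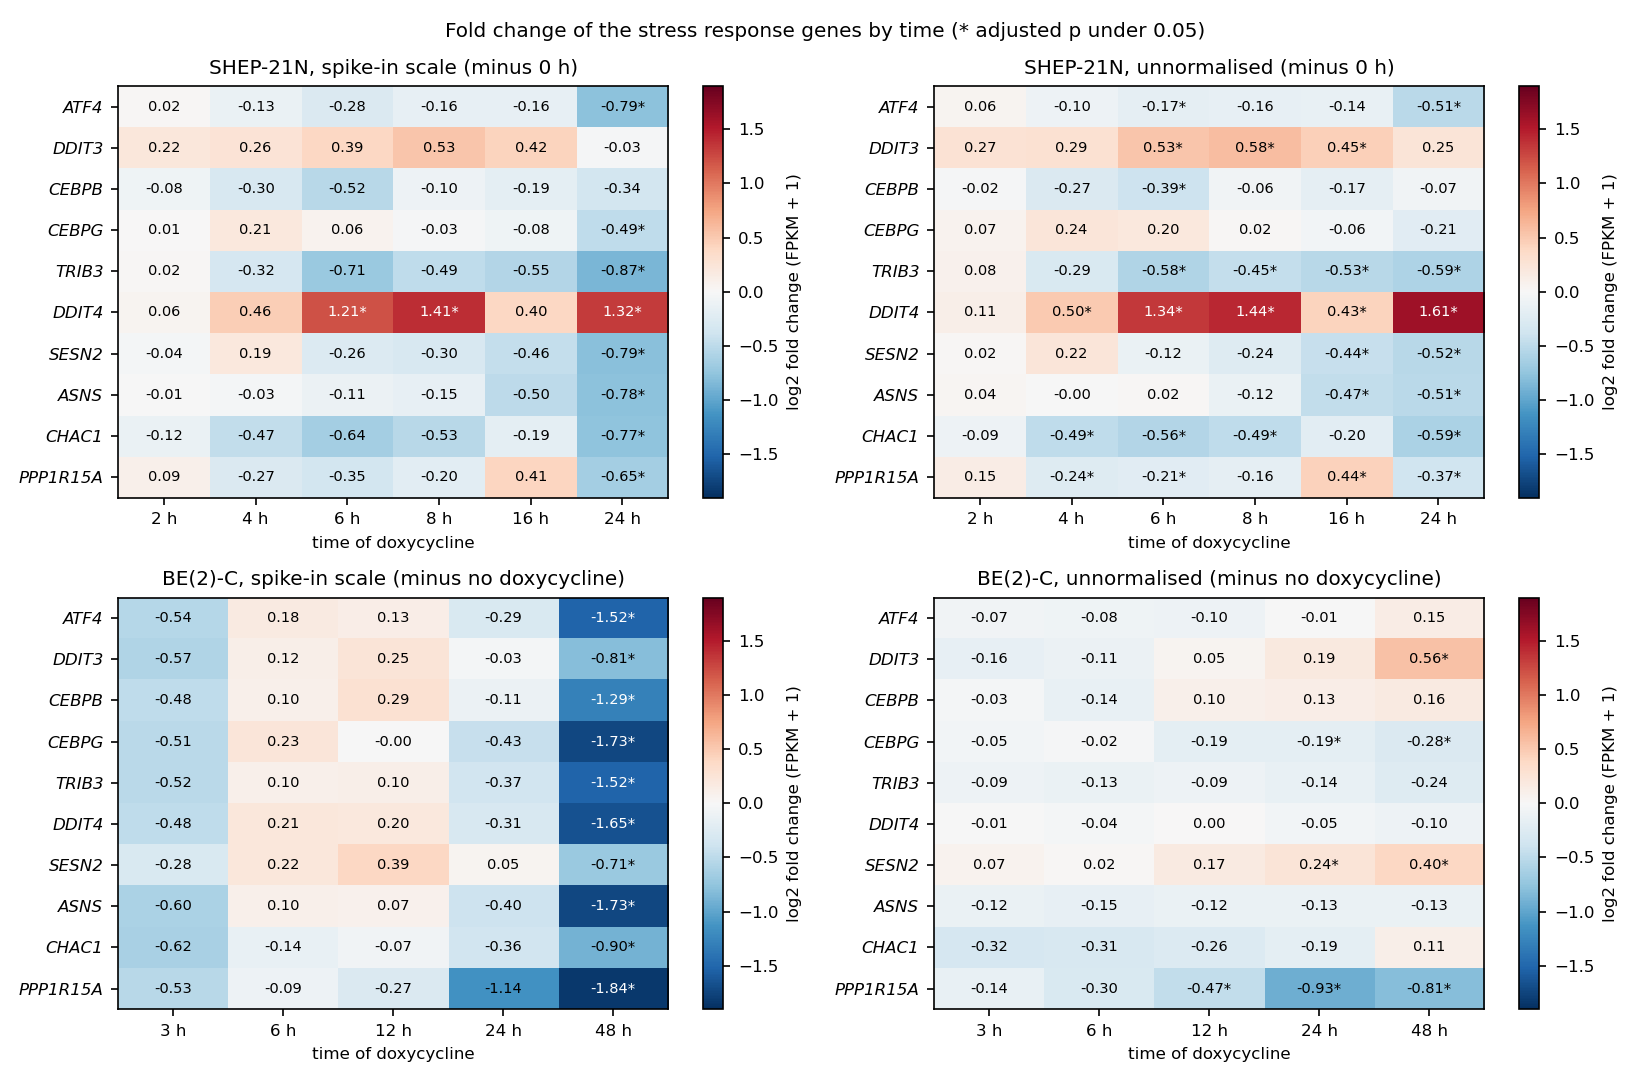
Log2 fold change of the 10 genes against 0 h (SHEP-21N, upper panels) or no doxycycline (BE(2)-C, lower panels) by time, on the spike-in scale (left) and unnormalised (right); colour and printed number give the change of log2(FPKM + 1), and an asterisk marks a limma adjusted p under 0.05. DDIT4 carries the largest rises (1.61 at 24 h, unnormalised), and the whole 48 h column of the spike-in panel of BE(2)-C cells is negative.

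**Figure D4:**
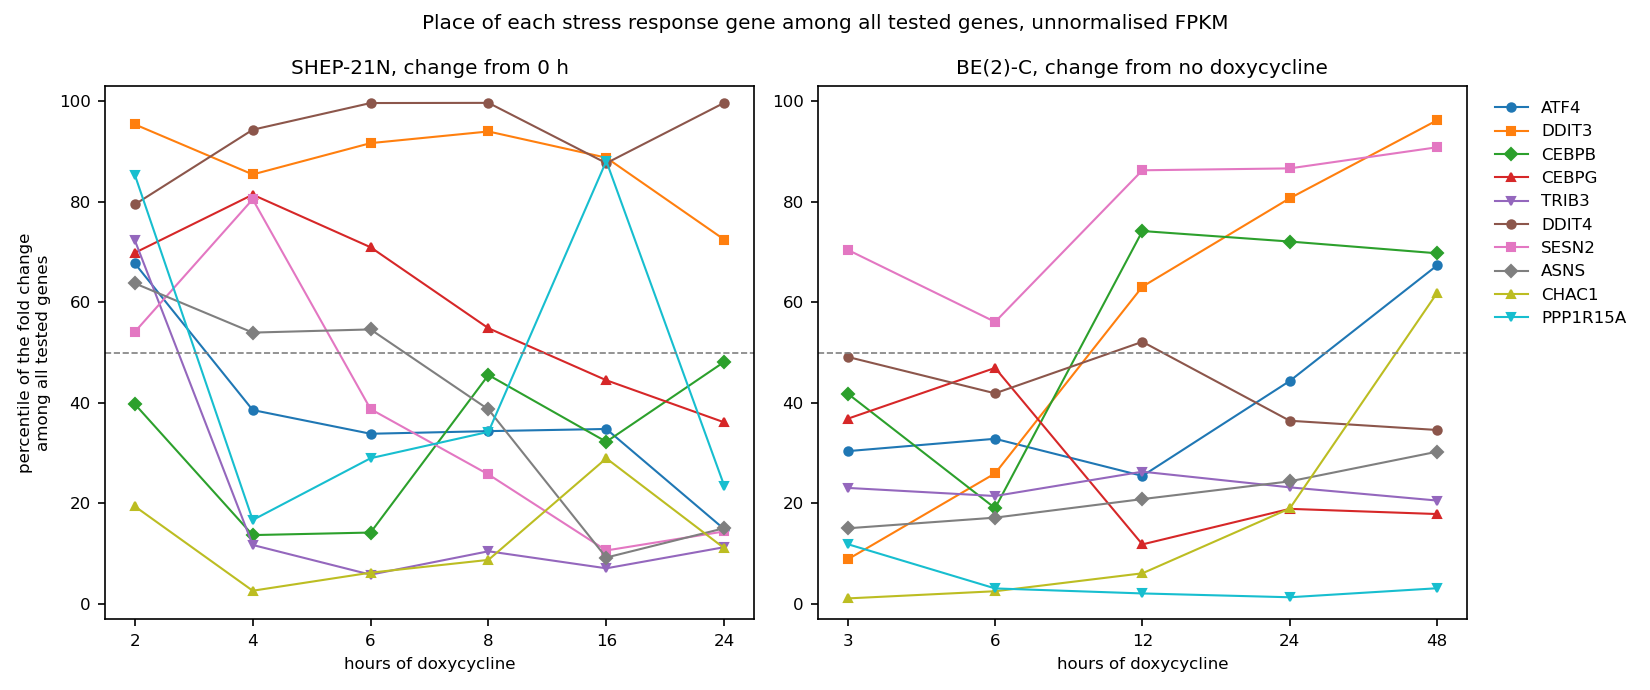
Percentile of each gene's unnormalised fold change among all tested genes (y axis) by hours of doxycycline (x axis), in SHEP-21N cells (left, 11867 genes) and BE(2)-C cells (right, 11433 genes); the dashed line is the 50th percentile. DDIT4 stays at the 79.5th percentile or above in SHEP-21N cells, PPP1R15A is at the 85.3rd at 2 h and the 88.1st at 16 h but below the dashed line at the other times, and in BE(2)-C cells PPP1R15A stays at the 11.9th or below while DDIT3 ends at the 96.2nd and SESN2 at the 90.8th.

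The 10 genes did not move as a block. On unnormalised log2 values Pearson's r between pairs of them ran from -0.72 (DDIT4 with CHAC1) to 0.82 (SESN2 with ASNS) over the 20 SHEP-21N libraries, with a median of 0.01 over 45 pairs. DDIT4 ran opposite to ATF4 (r = -0.71) and to TRIB3 (-0.70), while ATF4 ran with ASNS (0.71) and TRIB3 (0.70). Over the 18 BE(2)-C libraries r ran from -0.78 (SESN2 with PPP1R15A) to 0.81 (TRIB3 with ASNS), with a median of 0.24. These values describe the libraries, which share time points and controls, and no test was made.

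The tested genes whose unnormalised values ran most like ATF4 over the 20 SHEP-21N libraries were MRPL27, EMG1 and NUP85 (r = 0.96 each). Most like DDIT3 were COQ5, FBXO8 and EFHA1 (r of 0.81 to 0.82), and most like DDIT4 were METTL7A (0.97), HOTAIRM1 (0.96) and SNN (0.95). None of these was among the 3 nearest in BE(2)-C cells, where METTL17, ABHD16A and NPRL2 were nearest to ATF4 (0.91, 0.91 and 0.91), IFT46, CLNS1A and RIBC2 to DDIT3 (0.93, 0.92 and 0.91) and GSTM3, ALDOC and BCAS4 to DDIT4 (0.83 each).

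Other genes of the pathway were counted in lists, which were drawn up with results of these data known and are no independent evidence. The background of calls at 24 h in SHEP-21N cells was 6.16% higher and 32.4% lower on the spike-in scale, and 28.9% higher and 36.4% lower unnormalised. Of 15 tested genes of amino acid supply, enzymes and transporters known as ATF4 targets, 0 were higher and 10 lower on the spike-in scale. SLC7A5, a leucine transporter, held 94.9 ± 16.9 rescaled FPKM at 24 h (SD, n = 3), against 250 ± 36.5 FPKM at 0 h (SD, n = 2), a change of -1.40 (limma adjusted p = 0.000527). PSAT1 of serine synthesis changed by -1.23 and the glutamine transporter SLC1A5 by -1.31. Unnormalised, the list had 3 of 15 higher and 10 lower (background 28.9% and 36.4%), with a median of -0.73 against -0.04 for all tested genes.

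Of 13 genes for aminoacyl-tRNA synthetases and the tRNA exportin, which load and export tRNA, 0 were higher and 5 lower at 24 h in SHEP-21N cells on the spike-in scale. The background was 6.16% higher and 32.4% lower, so this count is near that of all tested genes. Among the 5 were WARS (-0.91), YARS (-0.91) and GARS (-0.67). Unnormalised, WARS (-0.63), YARS (-0.63) and GARS (-0.39) were also lower by limma. Of 16 genes for the eIF2 kinases, eIF2, its exchange factor eIF2B and their modulators, 0 were higher and 7 lower on the spike-in scale, with a median of -0.29 like that of all genes. Unnormalised, 6 of the 16 were higher and 7 lower (background 28.9% and 36.4%). The exchange factor subunit EIF2B5 held 23.5 ± 5.12 rescaled FPKM at 24 h, against 46.7 ± 6.75 FPKM at 0 h, a change of -0.98 (limma adjusted p = 0.00171). EIF2B3 changed by -0.80 and GCN1L1, which activates the amino acid sensing kinase, by -0.84.

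Of 9 tested paralogs of the 10 genes, 1 was higher and 4 lower at 24 h in SHEP-21N cells on the spike-in scale (background 6.16% higher and 32.4% lower). SESN3, a relative of SESN2, held 3.40 ± 0.570 rescaled FPKM at 24 h, against 1.03 ± 0.0450 FPKM at 0 h, a change of 1.11 (limma adjusted p = 0.000159), so that SESN2 and SESN3 went opposite ways. ATF3, a stress-induced relative of ATF4, held 2.45 ± 0.765 FPKM against 6.72 ± 0.0336 FPKM at 0 h (-1.19), and CHAC2 changed by -0.97. Of 10 other stress targets 1 was higher and 5 lower on that scale, with the same background. GDF15, a secreted stress hormone, held 2.81 ± 0.469 FPKM against 7.57 ± 0.843 FPKM at 0 h (-1.17). VEGFA changed by -1.08 and XBP1 by -1.18. Unnormalised, SESN3 was higher by limma (1.40) and ATF3 (-0.94), CHAC2 (-0.70), GDF15 (-0.91), VEGFA (-0.81) and XBP1 (-0.90) were lower. The background on that scale was 28.9% higher and 36.4% lower. The genes named are those with the smallest adjusted p on the spike-in scale and do not represent their lists.

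**Figure D5:**
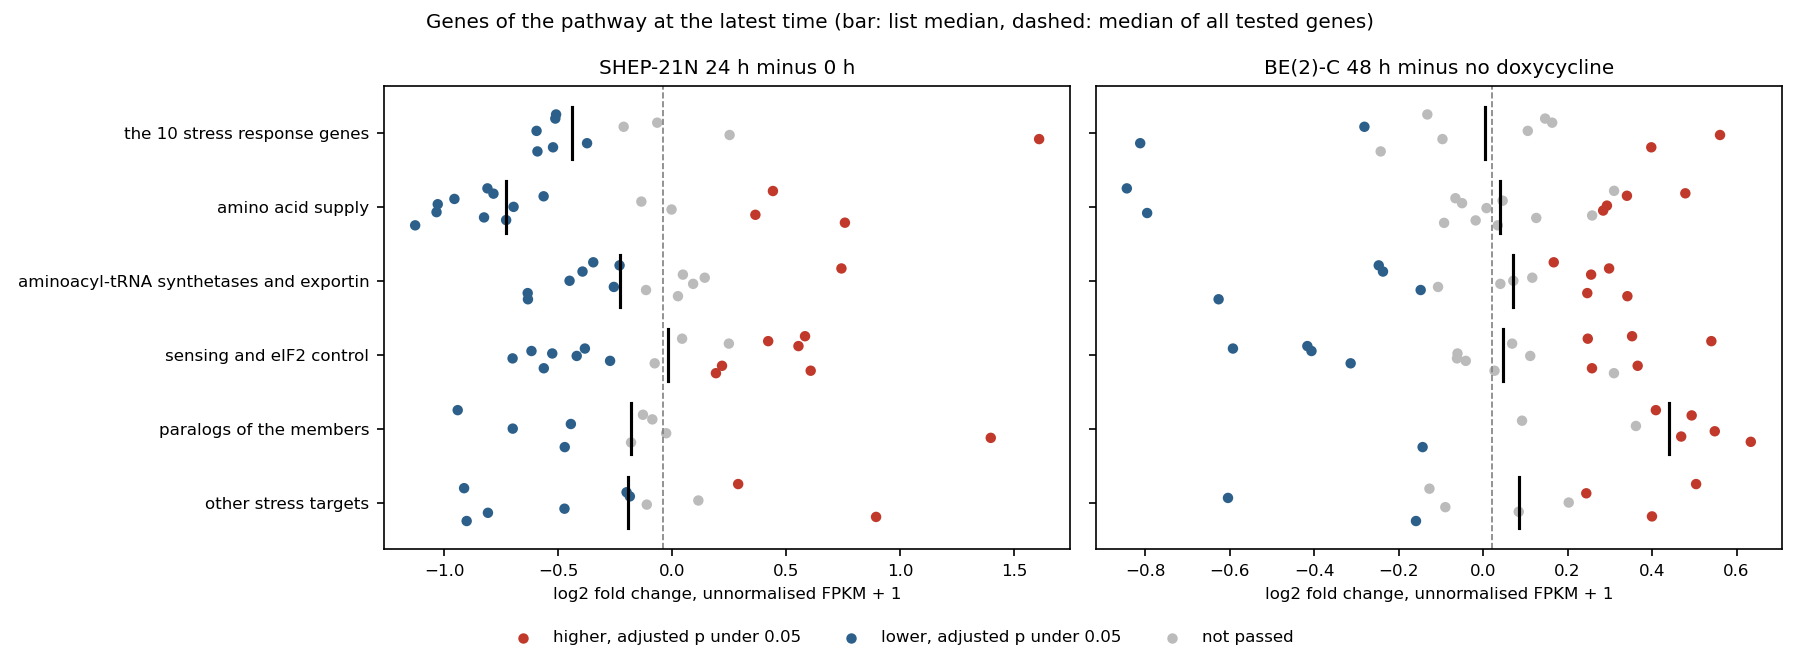
Unnormalised log2 fold change of single genes in the 10 stress response genes and 5 pathway lists (rows), at 24 h against 0 h in SHEP-21N cells (left) and at 48 h against no doxycycline in BE(2)-C cells (right); red is higher, blue lower and grey not passed at limma adjusted p under 0.05, the bar is the list median and the dashed line the median of all tested genes. The amino acid supply genes have their median at -0.73 in SHEP-21N cells and at 0.04 in BE(2)-C cells.

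In BE(2)-C cells at 48 h the spike-in scale called 15 of 16 amino acid supply genes, 13 of 13 synthetase and exportin genes, 16 of 16 eIF2 genes, 5 of 8 paralogs and 9 of 9 other stress targets lower (background 93.3%), and none higher (background 0.131%). In unnormalised values, with a background of 18.1% higher and 21.3% lower, the same lists had 4 higher and 2 lower, 5 and 4, 5 and 4, 5 and 1, and 3 and 2. SLC1A5 held 80.9 ± 0.913 unnormalised FPKM at 48 h, against 142 ± 21.7 FPKM without doxycycline (SD, n = 3 each), a change of -0.80 (limma adjusted p = 1.70e-06). ALDH18A1, of proline synthesis, changed by -0.84 and YARS by -0.63, while PHGDH of serine synthesis did not pass (-0.07, adjusted p = 0.682). EIF2B1 changed by -0.59 and EIF2B2 by -0.41. SESN3, a paralog picked by the same rule, was higher (0.47, limma adjusted p = 0.0479). The named genes were picked by smallest adjusted p on the spike-in scale, where 93.3% of tested genes were lower. They therefore do not represent the unnormalised counts.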

How the data were processed

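Polyadenylated RNA of counted cells, with ERCC spike-ins added at lysis, was made into stranded libraries, per the labels' protocols. The submitters' processing notes name HISAT, Cufflinks 2.0.0 and the hg19 build. Tables of FPKM, unnormalised and rescaled to the spike-ins, were deposited by the authors; no source used here gives the rescaling method. Of 49 samples 11 (BE(2)-C with DMSO or JQ1) have no column here and are not analysed. Column numbers only tell libraries apart. Depth is unknown.

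Genes with a mean of at least 1 unnormalised FPKM were tested (11867 and 11433; 92 spike-ins left out) with limma 3.58.1 in R 4.3.3 on log2(FPKM + 1), 1 mean per time, intensity trend, and Benjamini-Hochberg adjustment over all tested genes at 0.05; fold changes of low genes are understated. The model was also run on simulated data with independent noise for each gene. Such data lack the shifts shared by all genes of a library, so no conclusion is drawn from that run. Python 3.11.15, numpy 2.4.6, pandas 2.3.3 and matplotlib 3.10.9 were used. The text names the 10 genes, the targeted genes, up to 3 genes per list by smallest adjusted p at the latest time, and, for ATF4, DDIT3 and DDIT4, the 3 nearest by correlation on log2(FPKM + 1), small and uncharacterised RNAs left out. MARS, HBB and the comparisons of neighbouring times were added after values were seen. The genes, lists and rules were chosen with earlier results of these data known. Alternatives were unnormalised and median-centred values, pseudocount 0.1, no filter, no trend, a replicate block, only the groups compared, and single libraries left out.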

Additional observations from a re-analysis of the deposited data

How the results depend on the processing

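The number of the 10 genes called changed mostly with the scale. In SHEP-21N cells the counts on unnormalised and on median-centred values were 3 and 3 at 4 h (0 on the spike-in scale), 7 and 5 at 6 h (1), 4 and 4 at 8 h (1) and 6 and 6 at 16 h (0). In BE(2)-C cells they were 1 and 1 at 12 h (0), 3 and 2 at 24 h (0), 4 and 6 at 48 h (10), and 5 and 5 over the course (10). At 48 h in BE(2)-C cells the sign turned on unnormalised values for ATF4 (0.15), DDIT3 (0.56), SESN2 (0.40), CHAC1 (0.11) and CEBPB (0.16), and on centred values for DDIT3 (0.61), SESN2 (0.71), CHAC1 (0.53) and CEBPB (0.14). Adding 1 FPKM before logs shrinks a fall more in low genes than in the median gene. Centring rescaled values therefore pushes low genes such as CHAC1 and SESN2 upward, by an amount that was not tested. With only the groups compared in the fit, which has fewer samples, there were 3 calls at 6 h, 3 at 8 h and 5 at 24 h (8) in SHEP-21N cells. Leaving out single libraries gave 0 to 1 calls at 6 h, 1 to 2 at 8 h, 1 to 8 at 24 h and 3 to 9 over the course in SHEP-21N cells, and 0 to 1 at 24 h in BE(2)-C cells. Correlations, over genes, of the deviations of same-numbered libraries ran from -0.284 to 0.181 over 57 pairs in SHEP-21N cells and from -0.162 to 0.239 over 45 pairs in BE(2)-C cells. Such correlations cannot see a shift shared by all genes of a library. In BE(2)-C cells the library numbered 1 had the highest median log2 rescaled level at 3, 6, 12, 24 and 48 h (3.98, 4.82, 4.68, 3.97 and 3.15). Without doxycycline it had the lowest (3.57). Whether the numbers pair libraries therefore stays unknown. With the replicate block the count was 1 at 24 h in BE(2)-C cells (0) and 8 at 24 h in SHEP-21N cells (8). Pseudocount 0.1, no filter and no intensity trend kept every count within 1.5 times. Of 160 fold changes of single genes, dropping the filter ended 2 calls, and pseudocount 0.1 and the replicate block added 1 each. The cause of these differences was not tested. FPKM without read numbers set no counting error, a limit for low values: CHAC1 and SESN2 in both lines, and PPP1R15A at 24 and 48 h in BE(2)-C cells.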
